A study of Drosophila melanogaster with 4 samples.

Results

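Euchromatic 3L is taken here as the left arm of the third chromosome of Drosophila melanogaster without its last 3 Mb. These form the end of the arm sequence on the side of the centromere. On FlyBase release 5 coordinates it runs from position 1, at the tip of the arm, to 21543557. Its members are the enriched regions of the combined H3K9me2 list that end at or before that position, with regions named as depleted left out. They were taken by position alone. They numbered 530 of the 652 enriched regions on 3L and of 5614 in the whole combined list. The same interval held 223 of 3667 regions in the list of replicate 1 and 312 of 4728 in that of replicate 2.

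The chromatin came from nuclei of wild-type Oregon-R larvae of the third instar, precipitated with the antibody labelled H3K9me2 antibody2. Both ChIP libraries shared strain, genotype, stage and antibody, and each was set against the input library (sheared chromatin without precipitation) of the same replicate number. The labels name no single tissue, so a region found in some cell types and a region found weakly in all of them cannot be told apart. They also do not say whether the replicates came from separate collections of larvae, and the spread between them may be technical. No read depth accompanies the lists. With 2 lists, no exact test over replicates can give a two-sided p below 0.5.

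H3K9me2 is dimethylation of lysine 9 on histone H3. In flies the mark is laid down by the methyltransferases Su(var)3-9, Eggless (SETDB1) and G9a, and it is bound by heterochromatin protein 1, which links neighbouring nucleosomes into compact chromatin. It is best known from the repeat-rich chromatin around centromeres, chromosome 4 and telomeres, whereas the gene-rich arms carry it at scattered sites, many of which are known in flies to be transposon insertions and their flanks. Each region of a deposited list has a start, an end and a score given by the authors for its enrichment, in units whose scale is not stated. Scores are used here only to describe and rank regions. Genes, repeats and base sequence at the positions below were not determined, and regions are named by their release 5 coordinates.

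Enrichment on euchromatic 3L was sparse. Replicate 1 covered 634.2 kb, or 2.94% of the interval, and replicate 2 covered 784.9 kb, or 3.64%. The mean was 3.29% ± 0.494 (SD, n = 2), in 267.5 ± 62.9 regions (SD, n = 2). The combined list covered 6.12%. Regions per Mb numbered 10.4 and 14.5 in replicates 1 and 2, and 24.6 when combined.

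The other arms were trimmed by 3 Mb at the proximal end in the same way. Density on 2L was 11.1 and 13.9 regions per Mb in replicates 1 and 2, on 2R 9.64 and 13.7, on 3R 7.39 and 10.9, and on X 36.3 and 43.9. Against 2L the order changed between replicates, and the mean difference of 3L minus 2L was -0.101 ± 0.978 regions per Mb (SD, n = 2). In both replicates 3L lay above 3R, by 3.26 ± 0.423, above 2R, by 0.762 ± 0.0766, and above the mean of 2L and 3R, by 1.58 ± 0.700 (SD, n = 2 for each). It lay below X in both, with a difference of -27.7 ± 2.39 regions per Mb (SD, n = 2). For these 5 comparisons the exact two-sided sign-flip permutation test over the replicate lists gave p = 1 for 2L and p = 0.5 for the others, the smallest it allows (Benjamini-Hochberg adjusted 1 and 0.625). No difference in density between 3L and another arm can therefore be called with this test on 2 lists.

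Along the arm, regions were unevenly spread (plot of regions per 1 Mb window). Of the 21 full windows of 1 Mb, the fullest in the combined list were the third from the tip with 41 regions, the first with 40 and the twelfth with 39. The emptiest were the thirteenth and the sixteenth with 10 regions each, and the median window held 24. The twelfth and thirteenth windows adjoin. The twelfth (11000001 to 12000000) held 19 regions in replicate 1 and 27 in replicate 2 and was covered over 7.36% ± 0.897 (SD, n = 2). The thirteenth (12000001 to 13000000) held 6 and 4 regions and was covered over 1.97% ± 0.186 (SD, n = 2). This pair was picked as a high and a low of the same lists, so their difference is a description. Replicate 2 had more regions than replicate 1 in 17 of the 21 windows and fewer in 4, the thirteenth among them. Window counts followed each other between the replicates, with a Spearman rho of 0.819 over 21 windows, a description over windows of the same arm and assembly.

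**Figure D1:**
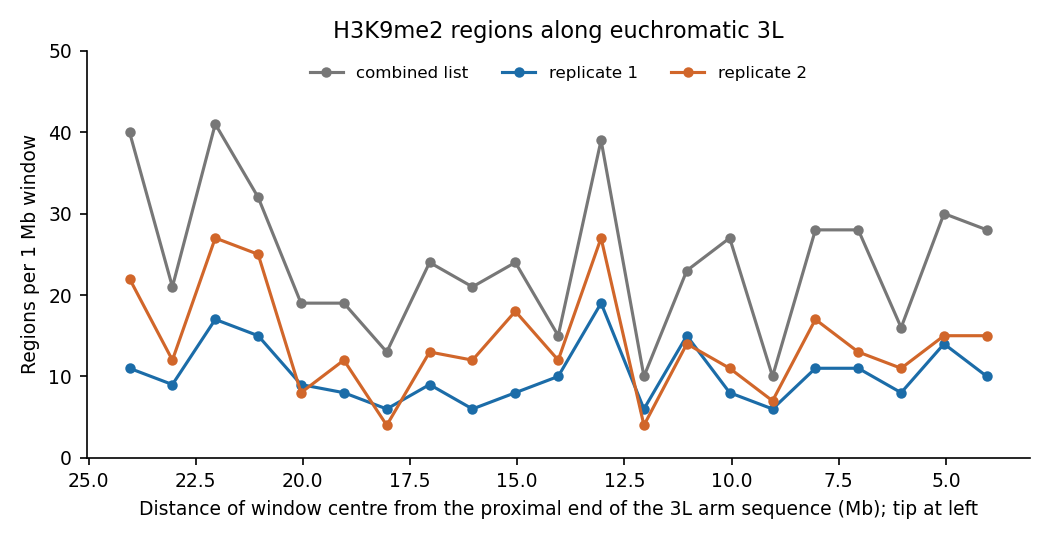
Number of H3K9me2 regions (y axis) in each full 1 Mb window of euchromatic 3L against the distance of the window's centre from the proximal end of the arm sequence in Mb (x axis, tip of the arm at left), for the combined list and each replicate list. The 3 lists share peaks in the third and twelfth windows from the tip and a low in the thirteenth.

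The third and the fourth window from the tip were among the fullest in both replicates, and the density of the distal end depended on how far it was taken to reach. In the distal 4 Mb, a span chosen after the windows had been seen, density was 13.0 regions per Mb in replicate 1 and 21.5 in replicate 2, against 9.75 and 12.9 over the remaining interval. The ratio was 1.5 ± 0.237 (SD, n = 2). It was 1.03 or below on 2L and between 1.08 and 1.15 on 2R and 3R in either replicate, and 0.758 and 0.771 on X. Since the span was picked on the windows of 3L alone, this contrast favours 3L and was not tested. The combined list gave 1.48 on 3L, and the ratio was similar for members found in both replicate lists (1.51), in a single list (1.48) and in neither (1.47). With the distal 2 Mb in place of 4 Mb it was 1.08 ± 0.164 (SD, n = 2), and the replicates lay on opposite sides of 1, at 0.963 and 1.20. In the proximal 2 Mb of the interval, by contrast, density was 1.13 ± 0.0888 times that of the remainder (SD, n = 2). That ratio was 0.987 among regions of at least 2000 bp, which turns its direction.

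Spacing ranged from adjoining regions to long empty stretches (plot of gap sizes). The median gap between neighbours was 52.9 kb for replicate 1 and 24.6 kb for replicate 2 (38.8 ± 20.0, SD, n = 2), and 15.8 kb among combined regions. The mean gap was 93.8 kb and 66.5 kb in replicates 1 and 2. Gaps of at most 1 kb made up 5.41% of 222 in replicate 1 and 11.3% of 311 in replicate 2. At the other end, 36.0% and 26.4% of gaps were 100 kb or longer. In both replicates the mean gap was well above the median, which does not by itself show that regions were grouped.

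**Figure D2:**
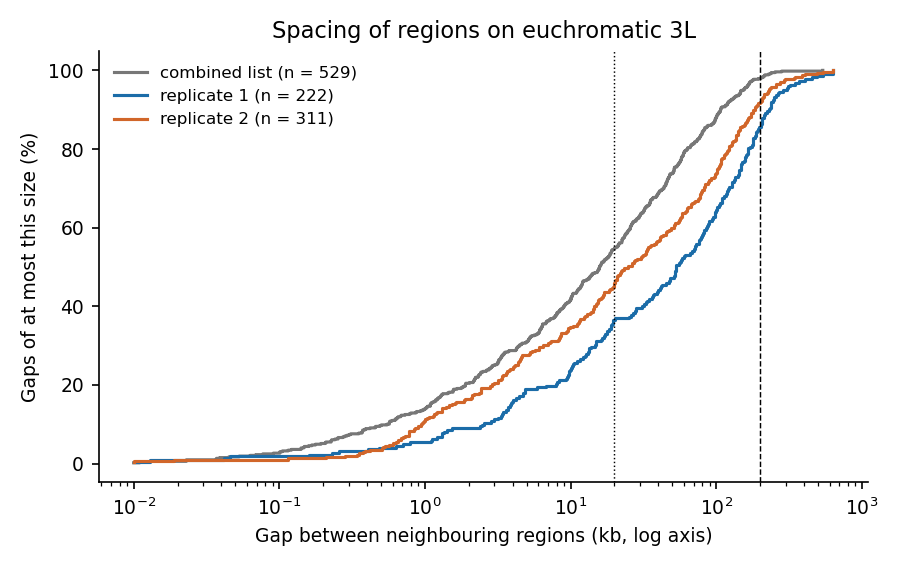
Cumulative share of gaps between neighbouring regions (y axis, %) by gap size in kb (x axis, log scale) for each list on euchromatic 3L. Gaps under 0.01 kb are drawn at 0.01 kb, and the vertical lines mark 20 kb, the largest gap inside a cluster, and 200 kb, the shortest empty stretch counted; the curve of replicate 1 lies farthest to the right over most of its length.

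Runs of at least 5 regions with gaps of at most 20 kb were counted as clusters. The combined list had 26 of them, holding 185 members (34.9%) in 6.02% of the interval, with spans of 17.9 to 98.1 kb and a median of 48.6 kb. Replicate 1 had 5 clusters and replicate 2 had 9, which held 17.0% ± 4.99 of their regions (SD, n = 2). Each of these overlapped a combined cluster, and 4 of the 5 in replicate 1 overlapped one in replicate 2. Of the 26 combined clusters, 25 held at least 1 region in both replicates, but only 5 held at least 5 regions in both. At least 5 regions were held by 5 of them in replicate 1 and by 11 in replicate 2. Members inside and outside clusters had similar medians. Length was 1849 bp inside and 1845 bp outside, the score 0.435 and 0.426, and the share found in both replicates 31.4% and 33.0%. Members longer than 5 kb made up 13.5% of those inside clusters and 6.09% of those outside.

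The fullest cluster (2196464 to 2250872) had 15 combined regions over 54.4 kb but only 4 in replicate 1 and 6 in replicate 2, which covered 17.2% ± 3.97 of it (SD, n = 2) against 56.4% in the combined list. No region in it scored above 0.593 in the combined list. Close by, the cluster from 2043198 to 2116594 was better replicated, with 13 combined regions, 8 in replicate 1 and 12 in replicate 2. It was the fullest cluster of both replicate lists, and they covered 31.2% ± 8.42 of its 73.4 kb (SD, n = 2). The third (611574 to 709646) had 13 combined regions over 98.1 kb, 6 in replicate 1 and 8 in replicate 2, with coverage of 18.0% ± 5.92 (SD, n = 2). All 3 lay in the distal 4 Mb, as did 8 of the 26 clusters. That span, chosen after the windows had been seen, makes up 18.6% of the interval. It held 25.6% of the members found in both replicate lists, 25.2% of those in a single list and 25.1% of those in neither. The cluster with the highest share covered was another (11433282 to 11479144), in the twelfth window. Its 45.9 kb was covered over 85.2% by 7 combined regions, and over 48.0% and 58.1% by replicates 1 and 2.

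**Figure D3:**
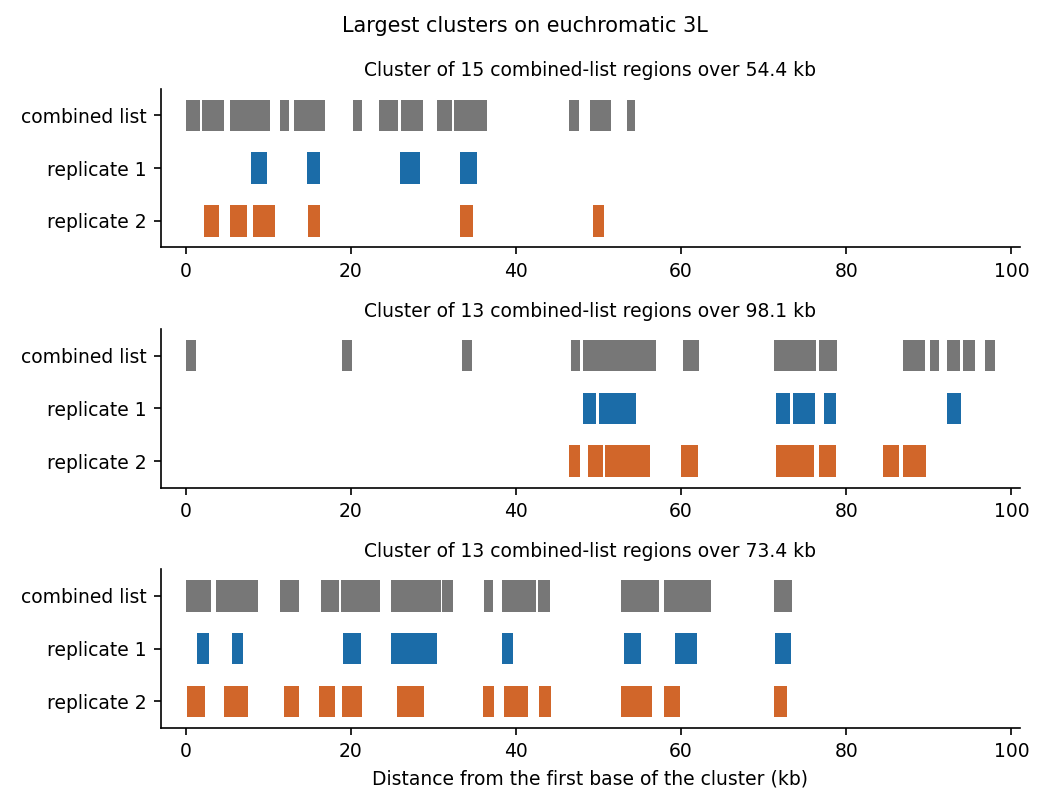
Extent of each region (bars) in the 3 clusters of euchromatic 3L with most combined-list regions, by distance in kb from the first base of the cluster (x axis), with a row for each list. Replicate regions fall mostly inside combined regions, and the cluster of 13 regions over 73.4 kb is the most evenly filled in both replicates.

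Long stretches held no region in either replicate, and the replicates placed some of them nearly alike. Stretches of at least 200 kb numbered 32 in replicate 1, 26 in replicate 2 (29 ± 4.24, SD, n = 2) and 11 in the combined list. They made up 45.1%, 35.4% and 13.1% of the interval. Counting only what was empty in both replicates left 20 stretches with 5.95 Mb, or 27.6% of the interval. Ranked by the length empty in both, the longest was 637.4 kb in each replicate. It ran from 17870539 to 18507980 in replicate 1 and from 17870437 to 18507865 in replicate 2, so the edges differed by 102 and 115 bp. The next were 536.6 kb ± 0.368 (from 12229854 in replicate 1), 493.8 kb ± 0.672 (from 4610481) and 408.3 kb ± 0.995 (from 1635523; SD, n = 2 for each). Other stretches differed between the replicates. That from 2832139 in replicate 1 was 629.7 kb long, the second longest of its list, and its counterpart in replicate 2 was 340.9 kb. Of the 22 pairs of overlapping stretches, 6 had both edges within 1 kb of each other.

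The combined list broke up most of these stretches with small regions. It placed 41 regions in 19 of the 20, and left 1 empty (13220433 to 13434048). Its own 5 longest empty stretches were 538.4 kb (17924337 to 18462717), 281.0 kb (12485635 to 12766679), 253.1 kb (4850749 to 5103809), 239.0 kb (4610549 to 4849557) and 234.7 kb (3189937 to 3424611). The third and the fourth of these are parts of a single stretch in both replicates, parted in the combined list by a region of 1.19 kb (4849558 to 4850748, score 0.708). The longest was likewise cut off from its replicate extent by regions of 1.75 kb (17922590 to 17924336, score 0.356) and 1.24 kb (18462718 to 18463958, score 0.415). Only the fifth held a region of a replicate list, 1 in replicate 2.

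The longest stretches had some large regions at their edges. On the distal side of the longest stretch empty in both replicates lay the region from 17860862 to 17870566 (9.71 kb, score 1.13), and on its proximal side that from 18507830 to 18511952 (4.12 kb, score 0.967). The next stretch had the region from 12224292 to 12230578 (6.29 kb, score 0.907) before it and that from 12766680 to 12777328 (10.6 kb, score 0.763) after it. The fourth ended at the first region of the well-replicated cluster at 2043198. Of the 40 edges of the 20 stretches, 30 lay inside a combined region, each in another member, and 10 lay in none. An edge in none could still lie close to a combined region, as that at 13434048 did to the region from 13434074 to 13436178. A member that holds an edge reaches past the replicate region into the stretch. The comparison below therefore takes members by their extent and can favour long ones. Of these 30 members, 4 were longer than 5 kb (13.3%), against 14.6% of the 315 members found in at least 1 replicate list. Their median length was 2.96 kb against 2.49 kb, and their median score 0.570 against 0.470.

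The outermost bases of the arm sequence carried no enriched region in the replicates. Whether reads could be placed there was not examined, so a lack of listed regions does not show a lack of the mark. The first region began 61.1 kb from the tip in replicate 1 and 54.1 kb in replicate 2, and in the combined list 27.3 kb from it (27278 to 29244, score 1.65). That outermost combined region lay in neither replicate list. The distal 50 kb was thus covered over 0% in both replicates and 3.93% in the combined list. In the distal 100 kb, replicate 1 had 2 regions, replicate 2 had 5 and the combined list 8, and coverage was 5.16%, 12.6% and 19.3%.

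The regions of the tip formed a cluster of 9 combined regions from 52354 to 123752. Its highest-scoring region lay from 65564 to 69764 (score 0.770), and both replicates held it, from 65748 to 69588 with a score of 0.846 and from 65680 to 69500 with 0.745. The region from 60644 to 64316 (score 0.361) was also held by both, with scores of 0.380 and 0.453. Those from 53882 to 55916, 74090 to 77636 and 90386 to 92168 (scores of 0.356, 0.377 and 0.329) were in replicate 2 alone. Those from 52354 to 53426 and from 56286 to 57296 (scores of 0.449 and 0.384) were in neither. The tip of 3L was covered over 8.88% ± 5.27 of its distal 100 kb (SD, n = 2), above the value over the whole interval in both replicates. The distal 500 kb was covered over 2.49% ± 1.59 (SD, n = 2). This was 1.36% in replicate 1, below its 2.94% over the whole interval, and 3.61% in replicate 2, nearly equal to its 3.64%. The distal 100 kb of 2L was covered over 2.54% and 4.90% in replicates 1 and 2, that of 2R over 2.06% and 1.97%, that of 3R over 0% and 1.77%, and that of X over 24.7% and 29.5%. Both replicates thus ordered the tips as X, 3L, 2L, 2R and 3R. Below 3L this order rested on at most 2 regions per tip and replicate. The combined list did not keep it, since 3R (6.64%) came ahead of 2L (4.32%) and 2R (4.04%), though still behind X (46.9%) and 3L (19.3%). The differences between tips were not tested.

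Most members were short. The replicates had median lengths of 2093 and 1995 bp (2044 ± 69.3, SD, n = 2), and 1847 bp among combined regions. The shortest regions were 1302 bp in replicate 1, 1305 bp in replicate 2 and 1001 bp in the combined list. Only 22, 24 and 46 regions exceeded 5 kb. The median score was 0.663, 0.621 and 0.432. Longer regions scored higher, with a Spearman rho of length and score of 0.726 and 0.622 for replicates 1 and 2 and 0.410 for combined regions, a description across regions of the same library.

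A pair of regions stood far above the others in length. The longest, from 3471692 to 3497902, spanned 26.2 kb with a score of 0.820. Replicate 1 covered 93.1% of it in 2 regions and replicate 2 covered 78.4% in 6. That from 11453472 to 11479144 spanned 25.7 kb with a score of 0.665 and was covered over 77.5% in 5 regions and 78.8% in 6. Both are therefore single regions only in the combined list, where the replicates had close groups of shorter ones. The other six of the 8 longest spanned 9.71 to 10.6 kb, with mean coverage by the replicates between 71.7% and 96.5%. They were the regions starting at 12766680, 20408756, 11603222, 13019664, 16435234 and 17860862, with scores of 0.763, 1.20, 0.934, 0.689, 0.854 and 1.13. All 8 were present in both replicate lists.

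The replicates shared 493.5 kb on euchromatic 3L, equal to 77.8% of what replicate 1 covered and 62.9% of what replicate 2 covered. The Jaccard index, the bases in both lists over those in either, was 0.533, against 0.527 on 2L, 0.521 on 2R, 0.452 on 3R and 0.565 on X with the same trimming. An overlap of 1 bp or more with the other replicate was found for 183 of 223 regions (82.1%) from replicate 1 and 195 of 312 (62.5%) from replicate 2. Unshared regions were shorter and scored lower. In replicate 1 the median length was 1594.5 bp for its 40 unshared regions and 2484 bp for the others, and the scores were 0.578 and 0.702. In replicate 2 the median lengths were 1652 bp (117 unshared) and 2444 bp, and the scores were 0.571 and 0.692.

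Of the 530 members, 172 (32.5%) overlapped both replicate lists, 143 (27.0%) a single list and 215 (40.6%) neither. Over all 5614 combined regions, 43.5% overlapped both and 33.2% neither. Fewer members of euchromatic 3L were thus replicated than over the genome, and the same held for each other trimmed arm. The shares in both and in neither were 32.1% and 41.9% on 2L and 29.0% and 45.5% on 2R. They were 26.2% and 44.8% on 3R and 33.0% and 39.3% on X. By bases the order was the opposite, since members in both lists made up 55.8% of the covered length and those in neither 21.7%. The single-list members came mostly from replicate 2, with 105 against 38.

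Length separated these classes (plot of length and score). An overlap of 1 bp is met more easily by a long member, and the combined regions come from these same libraries. Of 46 members of at least 5 kb, 43 (93.5%) were in both replicates and 0 in neither. Of the 143 shorter than 1302 bp, the shortest region of either replicate list on the interval, 0 were in both and 127 in neither. The score did not separate them in the same way. The share in both replicates was 8.57% of 175 members with a score below 0.4, 29.9% of 241 from there to 0.6, and 90.9% of 77 from 0.6 to 1. It was lower again above, with 68.8% of 16 members between 1 and 1.5 and 19.0% of 21 from 1.5 upwards.

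**Figure D4:**
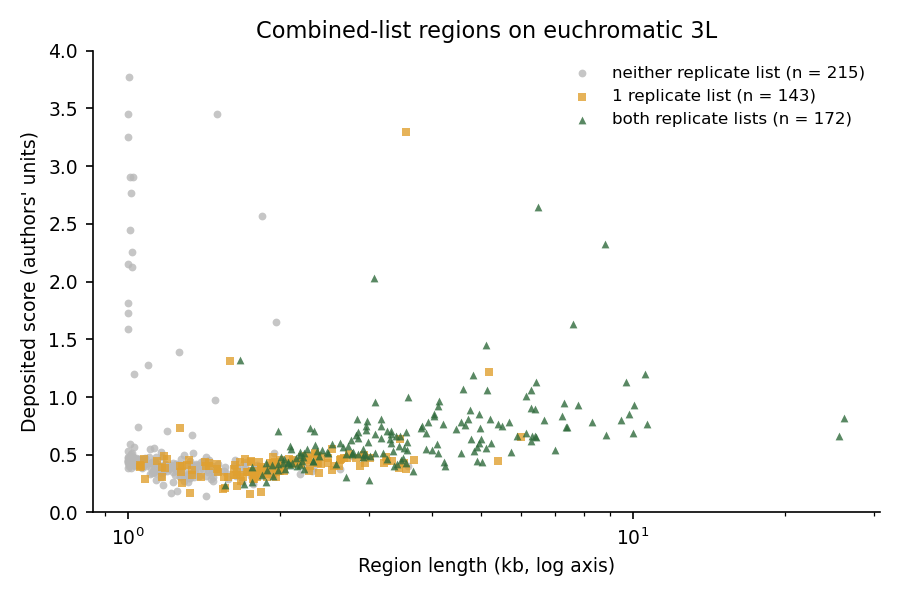
Deposited score in the authors' units (y axis) against region length in kb (x axis, log scale) for the 530 combined-list regions of euchromatic 3L, marked by the replicate lists they overlap. Regions in both lists spread from about 2 kb upwards, and 16 of the 21 regions scoring 1.5 or more are in neither list.

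The 16 highest-scoring unreplicated members were all small. Their lengths ran from 1001 to 1967 bp with a median of 1008 bp, their scores from 1.59 to 3.77, and 13 of them were shorter than 1302 bp. The 5 members with the highest scores included 4 of them, namely those from 1485798 to 1486800 (score 3.77), 3040426 to 3041924 (3.45), 1048614 to 1049614 (3.45) and 6416168 to 6417168 (3.26). The fifth, from 12914256 to 12917814 (score 3.30), was covered over 56.2% by a region of replicate 1, whose score of 4.07 was the highest of that list on the interval, and over 0% by replicate 2. Most of the highest combined scores on the interval were thus without a replicate region. On the other trimmed arms, combined regions with scores of 1.5 or more were in neither replicate list in 6 of 15 cases on 2L, 11 of 17 on 2R, 15 of 24 on 3R and 16 of 34 on X.

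Strong enrichment that both replicates held was found at few places, which were picked after their values had been seen. Regions scoring at least 1.5 in both lists lay at 6 loci. The region from 5108774 to 5115250 (6.48 kb) scored 3.06 in replicate 1, and replicate 2 split it into regions scoring 2.14 and 1.97. Together with its neighbour from 5103810 to 5108624 (4.82 kb, score 1.19) it closed the third longest empty stretch. The region from 5451174 to 5459992 (8.82 kb) scored 2.63 and 2.32 in replicates 1 and 2. That from 21368852 to 21371916 scored 2.00 and 2.37, that from 11960500 to 11965608 scored 1.90 and 2.03, and that from 20470050 to 20477646 scored 1.68 and 1.53. The order of these last 4 loci was therefore not the same in both replicates. The shortest of the 6 (1424686 to 1426354, 1.67 kb) had the closest scores, 3.07 and 3.08, but only 1.32 in the combined list. Each of these replicate scores lay a whole number of units from that of another region of its list.

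That locus had the largest drop from replicate to combined score. Among 154 members that held exactly 1 region of each replicate, 110 scored lower in the combined list than in either replicate and 2 scored higher than both. The median difference of combined minus replicate mean was -0.0878, and at 1424686 it was -1.75. Combined regions were also longer, with 137 of the 154 longer than both of their replicate regions and a median of 3.18 kb against 2.25 and 2.47 kb.

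Where a region of replicate 1 met a single region of replicate 2 and the reverse, their edges and scores could be compared directly. There were 160 such pairs. Their starts and ends differed by a median of 207 bp, and 75.3% of the 320 edges lay within 500 bp of each other. Scores differed by a median of 0.0897 in size, with 92 pairs higher in replicate 1 and 68 higher in replicate 2. The Spearman rho was 0.776 for scores and 0.702 for lengths, across regions that share their positions and the assembly.

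**Figure D5:**
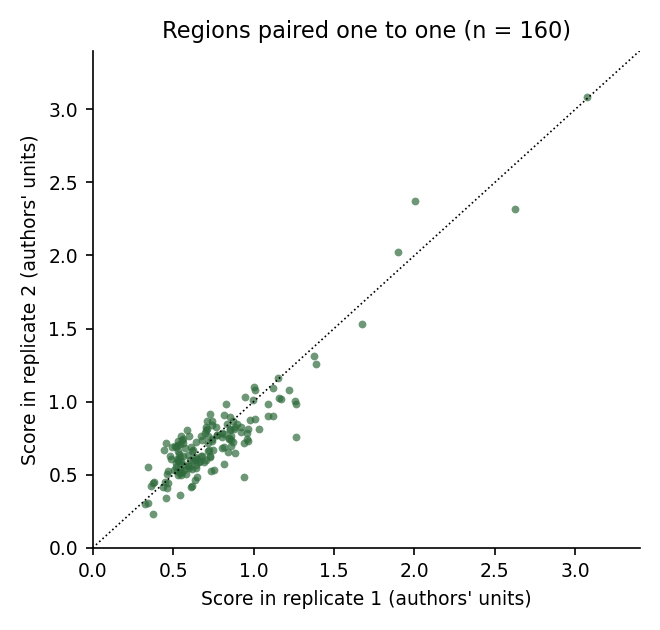
Score of the same region in replicate 1 (x axis) and replicate 2 (y axis), in the authors' units, for the 160 regions of euchromatic 3L that pair singly between the lists; the dotted line marks equal scores. Most pairs lie below a score of 1.5 in both lists, and 5 pairs reach 1.5 in both.

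At the limit of the interval the last members lay from 21501606 to 21502834 (score 0.346) and from 21526566 to 21530026 (score 0.663). The first regions beyond it lay from 21548732 to 21556122 (score 0.694) and from 21557592 to 21561430 (score 0.812). The limit itself is a fixed distance from the end of the arm sequence.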

How the data were processed

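The submitters' processing notes name Bowtie 0.12.7, and per the file headers positions refer to FlyBase release 5. Each deposited list gives regions with a score, the authors' enrichment value. Its scale, the region caller, its thresholds and how replicates were combined were not given in the sources used here. Deposited lists hold no counts, so depth is unknown.

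Regions named as depleted were set aside. Covered bases, gaps, clusters (at least 5 regions, gaps of at most 20 kb), empty stretches (at least 200 kb) and overlaps (at least 1 bp) were computed with Python 3.11.15, numpy 2.4.6, pandas 2.3.3 and scipy 1.17.1. The interval functions were checked on simulated lists. Replicate values are means ± SD over 2 lists; combined regions come from these same libraries. Differences between arms were tested with an exact sign-flip permutation test. Regions named are the 8 longest, the 5 highest-scoring, the 3 fullest clusters, the 5 longest empty stretches with their borders, the tip and the interval's limit; others are named as chosen later. Members, rules and limits were chosen with earlier results of these data known. No genome or annotation of this build was used.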

Additional observations from a re-analysis of the deposited data

How the results depend on the processing

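The density of 3L minus the mean of 2L and 3R kept its direction in each alternative run, and no setting can take its p below 0.5. Keeping only regions of at least 2000 bp gave a mean of 141 regions, 2.34% covered, 10.1% of regions in clusters, a proximal ratio of 0.987 and 43.6% of combined regions in both replicates, where fewer and longer regions enter by construction. A gap limit of 10 kb gave 8.08% in clusters, a threshold of 100 kb gave 81 empty stretches, the distal 500 kb was covered over 2.49%, and requiring 50% of a combined region left 27.9% in both. Leaving out the last 4 Mb gave a proximal ratio of 1.32, and the distal 2 Mb gave a distal ratio of 1.08 (0.963 and 1.20 in replicates 1 and 2). Beyond the construction named, the cause was not tested. Of 40 alternative values, 29 stayed within the limit set for them. For counts the limit was a ratio of 1.5 to the main value, and for the density difference only a kept sign. The 40.5 empty stretches found with regions of at least 2000 bp, against 29, thus counted as unmoved. For shares and ratios averaged over the replicates, that limit was the SD over the 2 lists. Leaving out a replicate cannot move a mean of 2 by that much, so those values are no sign of stability. With a replicate left out, values ran from 223 to 312 regions, 2.94% to 3.64% covered, 1.09 to 2.08 regions per Mb above 2L and 3R, 13.5% to 20.5% in clusters, 26 to 32 empty stretches, 5.16% to 12.6% of the tip, and ratios of 1.07 to 1.20 (proximal) and 1.33 to 1.67 (distal). Arms were compared within each replicate list. Between ChIP and input, which share replicate numbers, no paired analysis was possible because a block needs values of both kinds of library, and those used here are regions of the ChIP libraries.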

Other observations

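In the combined list, the densest of the 3, members with no neighbour were rare on euchromatic 3L. Only 12 of the 530 (2.26%) had no other combined region within 100 kb on either side. Of these, 4 were in both replicate lists and 6 in neither, their median length was 1461 bp, and 1 exceeded 5 kb. Such regions were not counted in the sparser replicate lists. There, gaps of 100 kb or longer made up 36.0% (replicate 1) and 26.4% (replicate 2) of all gaps, against 12.1% in the combined list.

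Windows of 100 kb gave a second view of how much of the interval held no listed region. Of 215 windows, 121 (56.3%) held enriched bases in both replicates, 5 in replicate 1 alone, 21 in replicate 2 alone and 68 (31.6%) in neither. The combined list placed enriched bases in 30 of those 68. The windows with most enriched bases ran from 3400001 to 3500000, covered over 29.0% ± 2.29, and from 11400001 to 11500000, covered over 28.4% ± 3.37 (SD, n = 2 for each). They hold the 2 longest members.

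Some scores recurred. In the combined list 43 of the 530 members shared all decimals of their score, to 9 places, with at least 1 other member, and 5 sets of such scores also differed by whole units. The score 0.449 was found in 6 members, while 3.45 (at 1048614 and 3040426) and 2.45 (at 20325652) lay 3 and 2 units above it. In replicate 1 the scores 3.07 (at 1424848) and 4.07 (at 12915683) differed by 1 unit to 9 places, and in replicate 2 so did 3.08 (at 1424902) and 1.08 (at 18507866) by 2 units.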
